A study of Homo sapiens with 8 samples.

Results

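The integrated stress response is described here through 10 of its regulators, the transcription factors ATF4, ATF5, DDIT3 and CEBPB, their targets TRIB3, CHAC1, NUPR1, DDIT4 and SESN2, and the eIF2 phosphatase subunit PPP1R15A. They were taken by gene symbol, and all 10 were found among the 19124 genes of the table. RNA sequencing had been done on HCT116 and HT29, which are established human colorectal cancer cell lines. Each line received either the negative control siRNA (NC) or siRNA against RPL9, RPL17 or RPL27, the messages of 3 proteins of the large ribosomal subunit. Per the labels, all groups were grown in RPMI, were transfected at 15 nM with Lipofectamine 2000 and were collected 48 h later as total RNA, so the NC groups carry the transfection too. There was 1 library for each siRNA in each line, 8 in all, and the number of siRNA sequences per target was not given in the sources used here.

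Cells run the integrated stress response through 4 kinases that phosphorylate the translation factor eIF2 when amino acids or heme run short, when proteins misfold in the endoplasmic reticulum, or when double-stranded RNA is present. Phosphorylated eIF2 slows most translation but raises that of a few messages with upstream reading frames, among them ATF4, ATF5, DDIT3 and PPP1R15A. ATF4 protein then activates genes for amino acid synthesis and uptake together with DDIT3, TRIB3 and CHAC1, and PPP1R15A closes the loop by bringing a phosphatase to eIF2. Levels of mRNA, the only readout here, do not measure eIF2 phosphorylation or the translation of ATF4.

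Values are RPKM, reads scaled to transcript length and library size, and they are compared between libraries for the same gene and not between genes. Estimated depth was 20.6 to 26.4 M (mega) reads per library, a rough value from the steps between low values of single-exon genes. The targeted messages stood at 26.7% to 38.5% of NC in HCT116 and at 13.7% to 18.7% of NC in HT29 in the libraries of their own siRNA. Set against the mean of the other RPL siRNA libraries of the line, they stood at 29.2% to 34.1% in HCT116 and 28.97% to 29.8% in HT29. In HT29 the same messages were also below NC with the other RPL siRNAs, at 29.3% to 65.4% of it. These short transcripts are raised in HT29 NC by 0.52 to 0.55 log2 units by the length trend described next. In HCT116 they stood at 61.7% to 121% of NC with the other RPL siRNAs. The lowest value in both lines was that of RPL27 with RPL17 siRNA. HT29 NC stood apart from the other libraries in how its log2 values, taken against the mean of the other 7, varied with transcript length. They declined with it (Spearman correlation -0.54 across 14180 genes). The same correlation was 0.12 to 0.23 for the other 7 libraries, each taken against a mean that includes HT29 NC. Every HT29 difference from NC below has HT29 NC, 1 library, as its reference. The shift that the trend puts on HT29 NC is given beside the values of each regulator and, by gene or as a range, of the list genes named. It is relative to the mean of all 8 libraries, not to the other HT29 libraries. Those had shifts of their own, of -0.06 to 0.10 at the lengths of the regulators, which also enter an HT29 difference. The epithelial markers EPCAM (2248 to 4431 RPKM) and KRT8 (9154 to 23025 RPKM) were high in all 8 libraries, while the intestinal markers CDX1 (at most 0.08 RPKM in any library) and, in HCT116, VIL1 (at most 2.89 RPKM) were near 0. Of markers of other cell types, PTPRC (at most 1.87 RPKM), DCN (at most 0.73 RPKM) and PECAM1 (at most 0.44 RPKM) were low in all libraries. COL1A1 (252 to 437 RPKM) and, in HT29, LYZ (1844 to 3001 RPKM) were high. The part of these markers in the results was not tested.

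Against NC, 8 of the 10 regulators were lower and 2 were higher on average over the 3 RPL siRNAs and both lines. NUPR1 was the only one of the 10 to pass the test (limma on log2(RPKM + 1) with terms for siRNA and line, Benjamini-Hochberg adjusted p under 0.05 over 14281 genes), and it fell, as did 0.063% of all genes. NUPR1 reached the filter of a mean of 1 RPKM only through NC, where it was high, so its call is not independent of that filter. In that comparison 0.168% of genes were called in all, 15 higher and 9 lower (36 and 47 with quantile normalization), and 3506 genes, 7 of the regulators among them, were below 0.05 before adjustment. The median log2 difference of the regulators was -0.85, and that of all tested genes was 0.10. Within a line the siRNAs have no replicates, so counts there carry no test. All 3 RPL siRNA libraries lay below NC for 7 regulators in HCT116 (32.4% of all genes) and for 7 in HT29 (32.7% of all genes), and above NC in HT29 for 3, ATF5, SESN2 and PPP1R15A (46.6% of all genes). DDIT3, CEBPB, TRIB3, CHAC1, NUPR1 and DDIT4 lay below NC in all 6 RPL siRNA libraries, as did 13.0% of all genes, and PPP1R15A lay above NC in all 6, as did 18.0%. CHAC1 and NUPR1 were at least 1 log2 unit below NC in all 6 libraries, which held for 74 genes (0.518%). Each NC library weighed on the counts of calls: without HT29 NC, CHAC1, NUPR1, DDIT4 and PPP1R15A were called (4 of 10, beside 12.9% of all genes), and without HCT116 NC all but ATF5 and SESN2 were called (8 of 10, beside 49.0% of all genes). Each of those fits rests on 1 NC library, so its p-values do not measure the error of the difference from NC. Their counts of calls are therefore not evidence for a regulator. The median log2 difference of the regulators was -0.46 without HT29 NC and -1.04 without HCT116 NC. In bulk RNA, fewer cells with a transcript and less transcript per cell cannot be told apart.

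**Figure D1:**
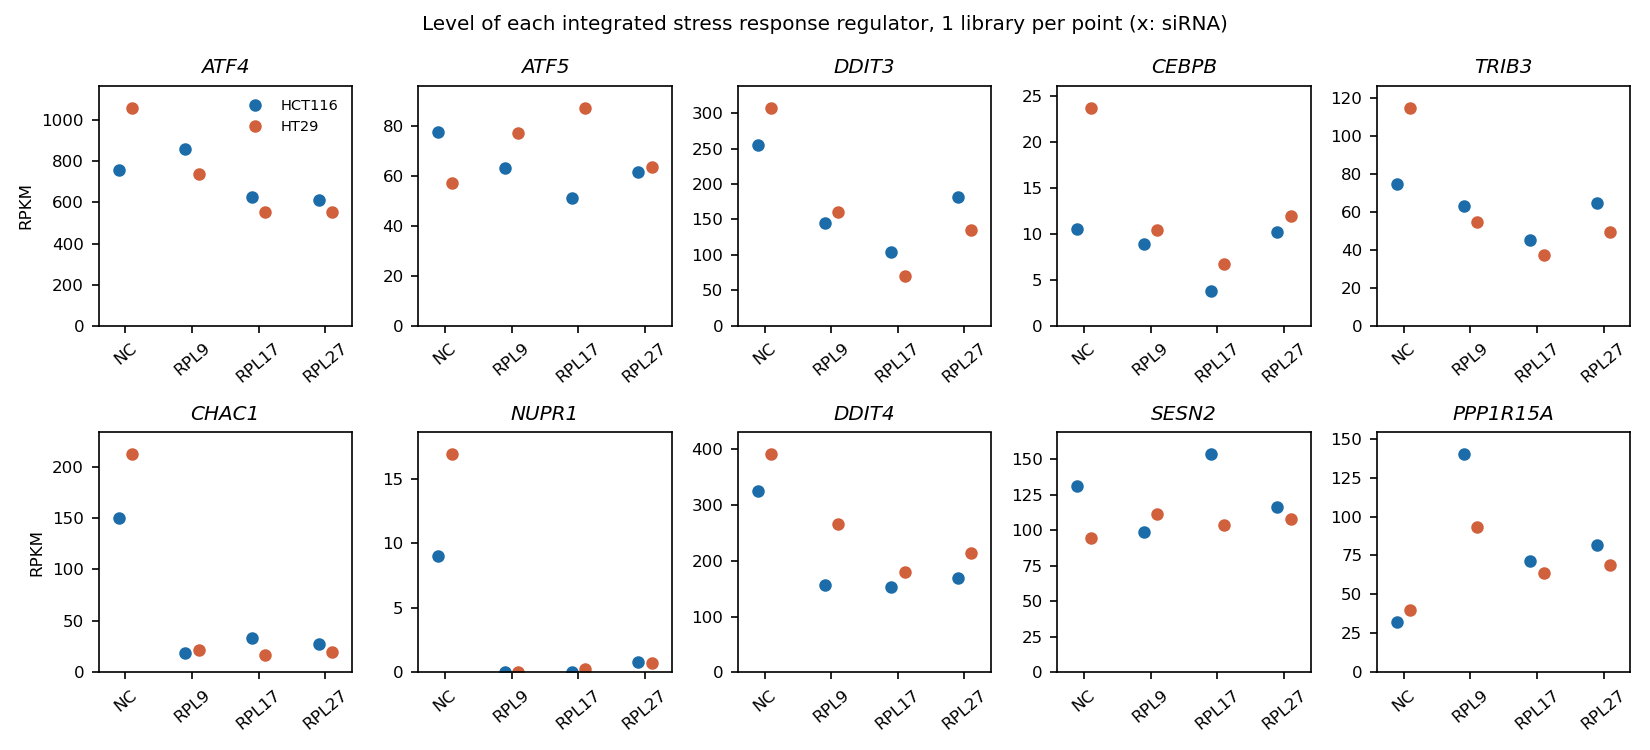
RPKM of each of the 10 regulators (y axis, linear from 0, own scale per panel) by siRNA (x axis), with 1 point per library, HCT116 in blue and HT29 in orange. CHAC1 and NUPR1 are highest in the NC library of both lines, and PPP1R15A is lowest there.

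CHAC1 showed the widest separation among the regulators that were detected in every library. It encodes an enzyme that breaks down glutathione and is induced through ATF4. In HCT116, CHAC1 stood at 151 RPKM with NC, 19.2 with RPL9 siRNA, 33.8 with RPL17 siRNA and 27.6 with RPL27 siRNA. In HT29 it stood at 212 RPKM with NC, 21.6 with RPL9 siRNA, 16.9 with RPL17 siRNA and 20.2 with RPL27 siRNA. Both NC libraries lay far above all 6 RPL siRNA libraries, with no overlap between the groups. The RPL siRNA libraries held 12.7%, 22.5% and 18.3% of the NC level in HCT116 and 10.2%, 7.97% and 9.51% in HT29 (RPL9, RPL17 and RPL27 siRNA). NC was 5.61 times the mean of the 3 RPL siRNA libraries in HCT116 and 10.9 times in HT29. The log2 difference over both lines was -2.93 (SE 0.33, 95% interval -3.75 to -2.11), and it missed the threshold (limma adjusted p = 0.0584). The length trend of HT29 NC raises a transcript as long as CHAC1 by 0.17 log2 units there, against a log2 difference of -3.38 in that line.

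The promoters of CHAC1 and PPP1R15A, the regulators furthest below and above NC among those detected in every library, are shown because each holds a binding motif of this pathway's factors. RefSeq promoter windows (GRCh38.p14) were found for 9 of the 10 genes, and the 250 bases before each start site were searched on both strands. The core of the C/EBP-ATF element, TGATGNAA, was present in CHAC1 alone among them, at bases -209 to -202 on the minus strand, and in 3.14% of 35116 promoters. The cyclic AMP response element, TGACGTCA, was present in PPP1R15A alone, at bases -58 to -51, and in 1.65% of promoters. Capitals mark the motif in the CHAC1 window at chr15:40953221-40953470 and the PPP1R15A window at chr19:48872171-48872420, both on the plus strand and written 5′ to 3′. A match describes letters in a window and is not evidence of binding.
CHAC1: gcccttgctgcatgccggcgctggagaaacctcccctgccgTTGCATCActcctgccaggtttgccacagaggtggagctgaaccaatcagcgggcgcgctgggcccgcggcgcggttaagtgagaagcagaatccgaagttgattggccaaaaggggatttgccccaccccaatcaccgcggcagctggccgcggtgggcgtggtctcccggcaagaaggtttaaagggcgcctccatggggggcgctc
PPP1R15A: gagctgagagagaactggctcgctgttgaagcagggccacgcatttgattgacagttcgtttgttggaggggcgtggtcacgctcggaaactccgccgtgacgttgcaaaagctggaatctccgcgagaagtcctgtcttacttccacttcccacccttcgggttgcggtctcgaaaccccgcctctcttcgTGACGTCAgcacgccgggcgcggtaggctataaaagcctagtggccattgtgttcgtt

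The NUPR1 gene encodes a small stress-inducible chromatin protein. HCT116 had 9.03 RPKM with NC, was listed at 0 with RPL9 and with RPL17 siRNA, and had 0.80 with RPL27 siRNA. HT29 had 16.9 RPKM with NC, was listed at 0 with RPL9 siRNA, and had 0.25 with RPL17 siRNA and 0.73 with RPL27 siRNA. The transcript was thus detected well in the NC libraries alone, and no fold is given against libraries listed at 0. Its mean over all libraries, 3.46 RPKM, passed the filter of 1 RPKM through NC alone. The mean of the RPL siRNA libraries was 0.27 RPKM in HCT116 and 0.33 RPKM in HT29. NUPR1 fell by 3.42 on the log2(RPKM + 1) scale (SE 0.35, 95% interval -4.28 to -2.55, limma adjusted p = 0.0483), a scale that understates the change of low genes. The call was lost when any 1 of the 6 RPL siRNA libraries was left out, with adjusted p of 0.238 to 0.296 in fits that called 0.0% of all genes, and also with a pseudocount of 0.1 (adjusted p = 0.0692) or of 5 (adjusted p = 0.0513). NUPR1 has the shortest transcript of the 10 at 550 bases, and the HT29 NC trend raises such a transcript by 0.55. With HT29 NC left out, the log2 difference was -3.04, the difference within HCT116 alone.

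TRIB3 is a pseudokinase that ATF4 and DDIT3 activate and that in turn restrains them. It read 74.4 RPKM with NC in HCT116 and 63.3, 45.0 and 64.7 RPKM with RPL9, RPL17 and RPL27 siRNA. In HT29 the values were 115 RPKM with NC and 54.6, 37.3 and 49.4 RPKM with the same siRNAs. All RPL siRNA libraries lay below their NC, with RPL17 siRNA lowest in both lines and the distance from NC larger in HT29. The log2 difference was -0.83 (SE 0.27, limma adjusted p = 0.152), from -0.38 in HCT116 and -1.28 in HT29. TRIB3 is shifted by -0.05 in HT29 NC by the length trend.

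**Figure D2:**
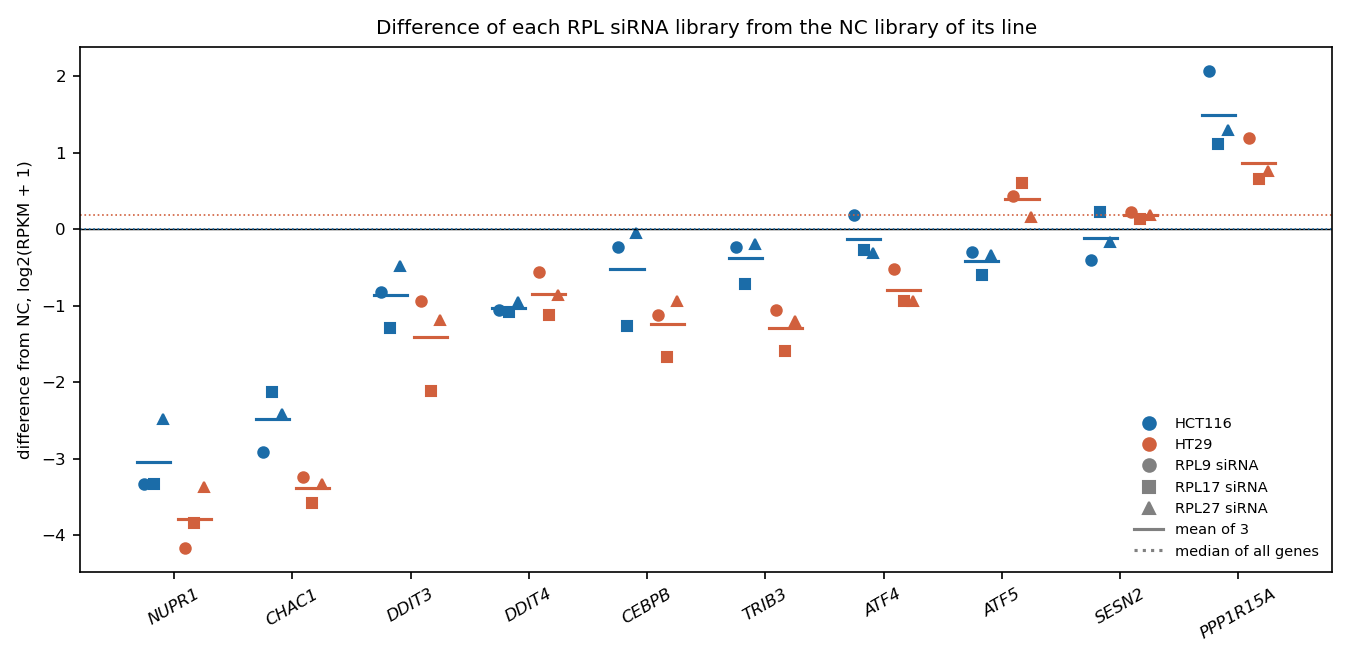
Difference of each RPL siRNA library from the NC library of its line on the log2(RPKM + 1) scale (y axis) for each regulator (x axis), with colours for the lines, shapes for the siRNAs, bars for the mean of the 3 RPL siRNA libraries of a line and dotted lines for the median of all genes in each line. NUPR1 and CHAC1 lie furthest below 0 (means of -3.04 and -2.48 in HCT116, -3.79 and -3.38 in HT29), and PPP1R15A lies above 0 in all 6 libraries.

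Among the transcription factors, the upstream activator ATF4 had an estimate closer to 0 than DDIT3, CEBPB, TRIB3, CHAC1, NUPR1 or DDIT4, a contrast between genes that was not tested. ATF4 mRNA measured 756 RPKM with NC in HCT116, and 858, 624 and 612 RPKM with RPL9, RPL17 and RPL27 siRNA. In HT29 it measured 1060.4 RPKM with NC, and 739, 555 and 554 RPKM with those siRNAs. RPL9 siRNA lay above NC in HCT116 and every other RPL siRNA library lay below its NC. The log2 difference was -0.46 (SE 0.19, 95% interval -0.93 to 0.00, limma adjusted p = 0.205), from -0.13 in HCT116 and -0.80 in HT29. The HT29 NC trend adds 0.10 at the length of ATF4. The annotation names 4 pseudogenes of ATF4 (ATF4P1 to ATF4P4), and how reads shared with them were counted was not given in the sources used here, so the ATF4 values are uncertain in that respect.

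DDIT3, also called CHOP, is the factor that ATF4 induces when stress persists. It stood at 255 RPKM with NC in HCT116, and at 145, 104 and 182 RPKM with RPL9, RPL17 and RPL27 siRNA. HT29 had 308 RPKM with NC, and 161, 70.5 and 135 RPKM with those siRNAs. No RPL siRNA library reached the NC level of its line, and RPL17 siRNA gave the lowest value in both, at 40.8% and 22.9% of NC. Its log2 difference was -1.13 (SE 0.23, 95% interval -1.71 to -0.56, limma adjusted p = 0.0896). The length trend of HT29 NC raises DDIT3 by 0.47, and once the trend with length was removed from all libraries the difference was -0.90 and passed the threshold (adjusted p = 0.0446, with 6.09% of all genes called). The gene overlaps MARS and MBD6 on the opposite strand, and whether counting used strand was not given in the sources used here.

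CEBPB encodes a leucine zipper factor that binds DNA with ATF4 and with DDIT3. HCT116 gave 10.6 RPKM with NC, and 8.86, 3.81 and 10.2 RPKM with RPL9, RPL17 and RPL27 siRNA. HT29 gave 23.7 RPKM with NC, and 10.4, 6.75 and 11.9 RPKM with those siRNAs. RPL17 siRNA was lowest in both lines, while RPL27 siRNA in HCT116 was close to NC at 96.6%. The log2 difference was -0.88 (SE 0.30, limma adjusted p = 0.166), from -0.51 in HCT116 and -1.24 in HT29. The HT29 NC trend adds 0.13 at this length. CEBPB has 1 exon, and its lowest value, RPL17 siRNA in HCT116, amounts to about 153 reads at the estimated depth.

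ATF5, a factor tied to the mitochondrial stress response and a target of the same translational control, lay on opposite sides of NC in the 2 lines. HCT116 had 78.0 RPKM with NC and 63.2, 51.3 and 61.6 RPKM with RPL9, RPL17 and RPL27 siRNA. HT29 had 57.1 RPKM with NC and 77.3, 87.5 and 63.8 RPKM with those siRNAs. All 3 RPL siRNA libraries lay below NC in HCT116 (mean log2 difference -0.41) and all 3 lay above it in HT29 (0.40). The estimate over both lines was -0.01 (SE 0.28, 95% interval -0.68 to 0.67, limma adjusted p = 0.990), an interval that leaves room for differences of that size. The HT29 NC trend adds 0.09 to ATF5 there. IL4I1 and NUP62 overlap ATF5 on the opposite strand.

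DDIT4 and SESN2 both encode inhibitors of mTORC1, and DDIT4 is also known as REDD1. DDIT4 stood at 325 RPKM with NC in HCT116, and at 156, 154 and 169 RPKM with RPL9, RPL17 and RPL27 siRNA. In HT29 it stood at 391 RPKM with NC, and at 266, 179 and 215 RPKM with those siRNAs. The 6 RPL siRNA libraries all lay below NC, at 45.9% to 68.2% of it, and the lines gave similar means of -1.02 in HCT116 and -0.84 in HT29. The log2 difference of DDIT4 was -0.93 (SE 0.18, 95% interval -1.39 to -0.48) and missed the threshold (limma adjusted p = 0.0867). The HT29 NC trend adds 0.21 at its length. SESN2 read 131 RPKM with NC in HCT116 and 98.5, 153 and 116 RPKM with RPL9, RPL17 and RPL27 siRNA, so NC lay inside the range of the other libraries. In HT29 it read 94.8 RPKM with NC and 111, 104 and 108 RPKM with those siRNAs, all slightly above NC. The SESN2 log2 difference was 0.03 (SE 0.22, 95% interval -0.50 to 0.57, limma adjusted p = 0.934). The HT29 NC trend lowers SESN2, the longest of the 10 transcripts at 3453 bases, by 0.28, and the sign turned to -0.13 with the length trend removed, to -0.18 with quantile normalization and to -0.17 with median-centring.

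PPP1R15A, also called GADD34, was the single regulator above NC in all 6 RPL siRNA libraries. It directs protein phosphatase 1 to eIF2 and so ends the response, and its gene is also induced by DNA damage. HCT116 had 32.5 RPKM with NC, and 140.0, 71.4 and 81.4 RPKM with RPL9, RPL17 and RPL27 siRNA. HT29 had 40.3 RPKM with NC, and 93.4, 64.0 and 69.0 RPKM with those siRNAs. The groups did not overlap, and RPL9 siRNA was highest in both lines, at 430% and 232% of NC. The mean of the 3 RPL siRNA libraries was 3.0 times NC in HCT116 and 1.87 times NC in HT29. Its log2 difference was 1.18 (SE 0.24, 95% interval 0.60 to 1.76) and missed the threshold (limma adjusted p = 0.0875). The length trend of HT29 NC shifts PPP1R15A by -0.01, and with that trend removed from all libraries the difference was 1.16 (adjusted p = 0.0380).

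Each RPL siRNA was then set against NC over both lines. No regulator passed the test for any of them, whereas 0.007% of all genes passed for RPL9 siRNA, 0.014% for RPL17 siRNA and 0.0% for RPL27 siRNA. At an unadjusted p under 0.05 there were 5, 8 and 6 regulators and 2913, 2247 and 2390 genes. The 3 comparisons share the same NC libraries. The median log2 difference of the regulators was -0.66 with RPL9 siRNA, -1.13 with RPL17 siRNA and -0.66 with RPL27 siRNA, beside 0.10, 0.10 and 0.12 for all genes. CHAC1 differed from NC by -3.07, -2.85 and -2.87 log2 units with the 3 siRNAs (SE 0.41 each, limma adjusted p of 0.0986, 0.188 and 0.111), and the siRNAs differed from each other by less than 1 SE. PPP1R15A differed from NC by 1.63, 0.88 and 1.03 (SE 0.29 each, limma adjusted p of 0.105, 0.273 and 0.208).

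The sizes of differences among the RPL siRNAs do not rest on NC levels. In the main test the NC libraries still enter the spread, and so the p-values. RPL17 siRNA gave the lowest value of the 3 in both lines for DDIT3, CEBPB, TRIB3, DDIT4 and PPP1R15A, as it did for 15.1% of all genes. RPL9 siRNA gave the highest in both lines for ATF4 and PPP1R15A, as it did for 17.5% of genes, and RPL27 siRNA for CEBPB and NUPR1, as it did for 15.8%. In the test of each siRNA against the other two, 0.0% of all genes and none of the regulators passed for RPL9, RPL17 or RPL27 siRNA, while 691, 518 and 601 genes were below 0.05 before adjustment. The regulators with an unadjusted p under 0.05 were PPP1R15A for RPL9 siRNA (log2 difference 0.68, SE 0.25, limma adjusted p = 0.975), and DDIT3 (-0.85, SE 0.25) and CEBPB (-0.89, SE 0.32) for RPL17 siRNA (limma adjusted p of 1 for both). DDIT3 under RPL17 siRNA was lower than the mean of the other two by 0.64 in HCT116 and 1.05 in HT29. ATF4 under RPL9 siRNA was higher by 0.47 in HCT116 and 0.41 in HT29, with an estimate of 0.44 (SE 0.20, limma adjusted p = 1). In a fit on the 6 RPL siRNA libraries alone, where 0.816% of genes were called for RPL9 siRNA, ATF4 had a limma adjusted p of 0.0531 and PPP1R15A one of 0.0948. That fit called 0.464% of genes for RPL17 siRNA and 1.39% for RPL27 siRNA.

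**Figure D3:**
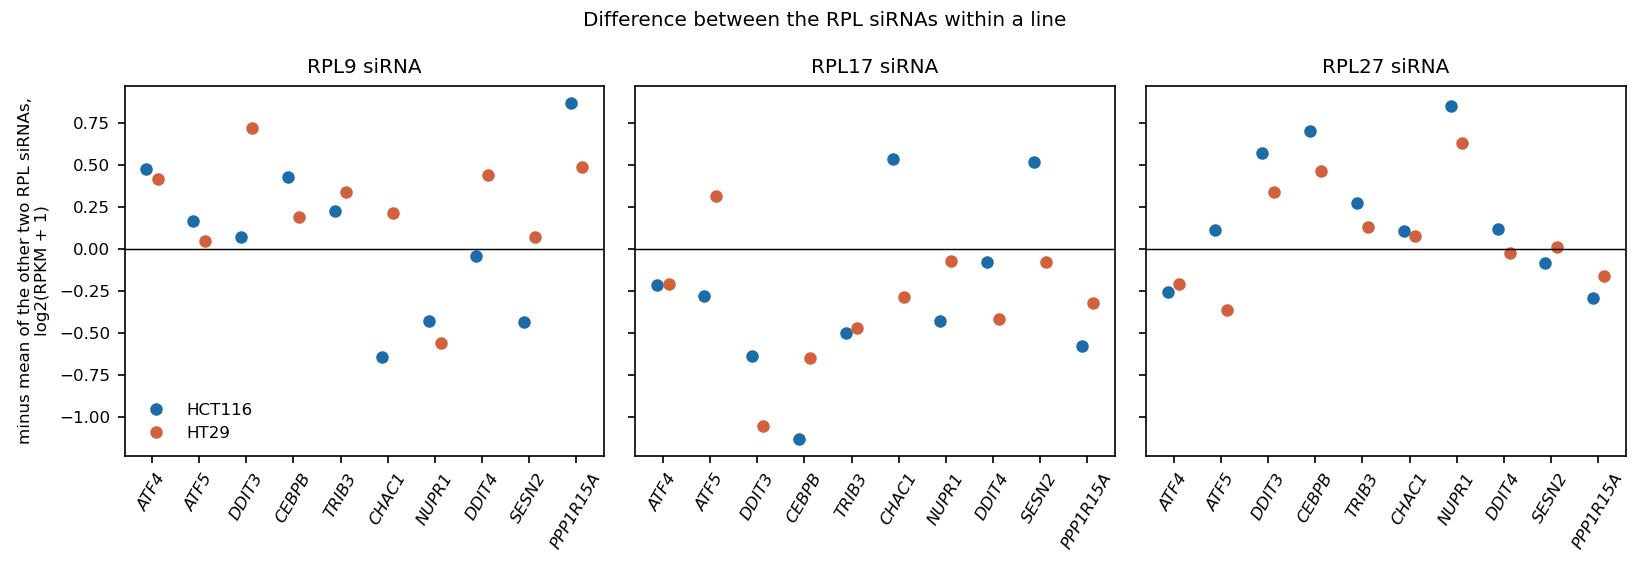
Difference of each RPL siRNA library from the mean of the other RPL siRNA libraries of its line on the log2(RPKM + 1) scale (y axis), 1 panel per siRNA and 1 point per line for each regulator (x axis). ATF4 and PPP1R15A lie above 0 with RPL9 siRNA in both lines, and DDIT3, CEBPB and TRIB3 lie below 0 with RPL17 siRNA in both lines.

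Levels over all siRNAs were then compared between the lines. None of the 10 passed the test of HCT116 against HT29, in which 3.61% of all genes did. DDIT4 had an unadjusted p under 0.05 and was lower in HCT116 (log2 difference -0.40, SE 0.16, limma adjusted p = 0.251). CEBPB had the largest estimate among the 10 (-0.55, SE 0.26, limma adjusted p = 0.317). The effect of RPL siRNA itself was also compared between lines, with the RPL siRNAs within a line as its replicates against 1 NC library. Its p-values therefore measure the spread between different siRNAs, not between repeats of one. None of the regulators passed that test, in which 22.9% of all genes did (7.55% with the length trend removed), and HT29 NC enters each of those differences. TRIB3 and CHAC1 were lower against NC by 0.90 more log2 units in HT29 than in HCT116 (SE 0.45 and 0.49, limma adjusted p of 0.189 and 0.231), and ATF4 by 0.66 more (SE 0.34, limma adjusted p = 0.207).

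Genes around the regulators were read from 12 lists of the pathway, in the comparison of any RPL siRNA with NC. The lists were put together with earlier results of these data known, and their counts are descriptions. Of 13 ATF4 target enzymes of amino acid and folate metabolism, 4 fell (0.063% of all genes) and none rose. Of the 13, 10 lay below NC in all 6 RPL siRNA libraries (13.0% of all genes). The 4 were ASNS, the asparagine synthetase (log2 difference -2.52, SE 0.19), PHGDH (-2.51, SE 0.20) and PSAT1 (-1.80, SE 0.14), which open the serine synthesis pathway, and PCK2, the mitochondrial PEP carboxykinase (-2.53, SE 0.18), each with a limma adjusted p of 0.0222. All 4 calls were lost when any 1 of the 6 RPL siRNA libraries was left out, in fits that called 0.0% of all genes (adjusted p of 0.218 to 0.285, estimates of -2.59 to -1.78). These 4 genes are raised in HT29 NC by 0.08 to 0.35 by the length trend. ASNS stood at 4661 RPKM with NC in HCT116 and 917, 1031 and 1115 RPKM with RPL9, RPL17 and RPL27 siRNA, and at 5254 RPKM with NC in HT29 and 756, 662 and 781 RPKM with those siRNAs. The groups of ASNS did not overlap in either line, like those of CHAC1. The list median was -0.80, from -1.13 in HCT116 and -0.92 in HT29.

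None of the 8 amino acid transporters passed (median -0.47), and its members with the largest estimates pointed in opposite directions, SLC1A4 at -1.58 (SE 0.31, limma adjusted p = 0.0867) and SLC38A2 at 1.24 (SE 0.38, limma adjusted p = 0.143). SLC38A2 stood at 1450 RPKM in HT29 NC and at 5763 to 6711 RPKM in the other HT29 libraries, but at 5328 to 7459 RPKM in all HCT116 libraries. HT29 NC shifts are -0.65 for SLC38A2 and 0.42 for SLC1A4. None of 13 aminoacyl-tRNA synthetases and tRNA export genes passed either (median -0.58), and 9 lay below NC in all 6 libraries (13.0% of all genes). GARS (-1.13, SE 0.13, limma adjusted p = 0.0584) and CARS (-1.10, SE 0.15, limma adjusted p = 0.0662) had the largest estimates, with HT29 NC shifts of -0.08 and -0.11. Among 13 other targets of ATF4 or DDIT3, none passed (median 0.33). The translation repressor EIF4EBP1 had an estimate of -1.48 (limma adjusted p = 0.0927) and the death receptor TNFRSF10B one of 1.53 (limma adjusted p = 0.0721), with HT29 NC shifts of 0.48 and -0.47.

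Upstream of ATF4, none of the 6 eIF2 kinases and activators (median 0.39), 8 eIF2 and eIF2B subunits (median 0.28) or 4 other phosphatase subunits (median 0.01) passed the test. EIF2AK2, the double-stranded RNA kinase, stood at 207 RPKM in HT29 NC and 667 to 726 RPKM in the other HT29 libraries, and at 655 to 889 RPKM in HCT116, with an estimate of 0.79 (SE 0.43, limma adjusted p = 0.289) and an HT29 NC shift of -0.52. GCN1L1, which activates the kinase GCN2, had an estimate of 0.73 (limma adjusted p = 0.145) and a shift of -1.11. The eIF2 beta subunit EIF2S2 had -0.57 (limma adjusted p = 0.0935) and the eIF2B subunit EIF2B4 had 0.51 (limma adjusted p = 0.193), with shifts of -0.08 and 0.19. The phosphatase catalytic subunits PPP1CA and PPP1CB had -0.48 and 0.57 (limma adjusted p of 0.170 and 0.247), with shifts of 0.36 and -0.65. None of the 10 other bZIP factors passed (median 0.06). ATF3, a factor that ATF4 induces and that represses some of the same genes, stood at 67.9 RPKM with NC and 163, 109 and 46.4 RPKM with RPL9, RPL17 and RPL27 siRNA in HCT116, and at 51.5 RPKM with NC and 179, 110 and 37.1 RPKM in HT29. RPL27 siRNA thus lay below NC and the others above it in both lines (estimate over the 3 siRNAs 0.63, SE 0.21, limma adjusted p = 0.156). JDP2 had an estimate of -1.74 (SE 0.25, limma adjusted p = 0.0662), and the HT29 NC shifts of ATF3 and JDP2 are 0.14 and 0.50. None of 10 paralogs of the regulators passed (median -0.14), with TRIB1 at 0.85 (limma adjusted p = 0.0899) and DDIT4L at -1.07 (limma adjusted p = 0.192), and HT29 NC shifts of -0.33 and -0.07.

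Other stress programmes were read in the same way. None of 11 genes of the endoplasmic reticulum unfolded protein response passed (median -0.53), with HERPUD1 at -1.29 (SE 0.18, limma adjusted p = 0.0662) and DNAJC3 at 0.88 (limma adjusted p = 0.157), and HT29 NC shifts of 0.16 and -0.78. None of 7 genes of the mitochondrial stress response passed (median -0.48), with HSPE1 at -0.56 and OMA1 at -0.53 (limma adjusted p of 0.181 and 0.216), and HT29 NC shifts of 0.50 and 0.14. Of 11 p53 targets, listed because p53 also drives some of the regulators, 4 rose (0.105% of all genes) and none fell (median 1.81). Of the 11, 8 lay above NC in all 6 libraries (18.0% of all genes). CDKN1A, the cell cycle inhibitor p21, rose by 2.16 log2 units (SE 0.15, limma adjusted p = 0.0222), with 225 RPKM in NC against 958 to 1195 RPKM in HCT116 and 198 RPKM in NC against 761 to 864 RPKM in HT29. PLK2 rose by 1.67 (limma adjusted p = 0.0222), BTG2 by 2.17 and FAS by 2.11 (limma adjusted p = 0.0483 for both). These 4 calls too were lost when any 1 of the 6 RPL siRNA libraries was left out, in fits that called 0.0% of all genes (adjusted p of 0.218 to 0.296, estimates of 1.64 to 2.23). Their HT29 NC shifts are -0.12 to 0.05. The largest estimates of the list belonged to MDM2, the ubiquitin ligase of p53 (3.10, SE 0.44, limma adjusted p = 0.0662), and ZMAT3 (2.79, SE 0.69, limma adjusted p = 0.111), which did not pass. MDM2 differed from NC by 2.06 in HCT116 and 4.13 in HT29 and ZMAT3 by 1.17 and 4.41, with HT29 NC shifts of -1.27 and -1.15 for these long transcripts. The median of the p53 targets was 1.76 in HCT116 and 1.92 in HT29. Within the 12 lists, 8 genes passed the test in all, 4 in each direction.

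**Figure D4:**
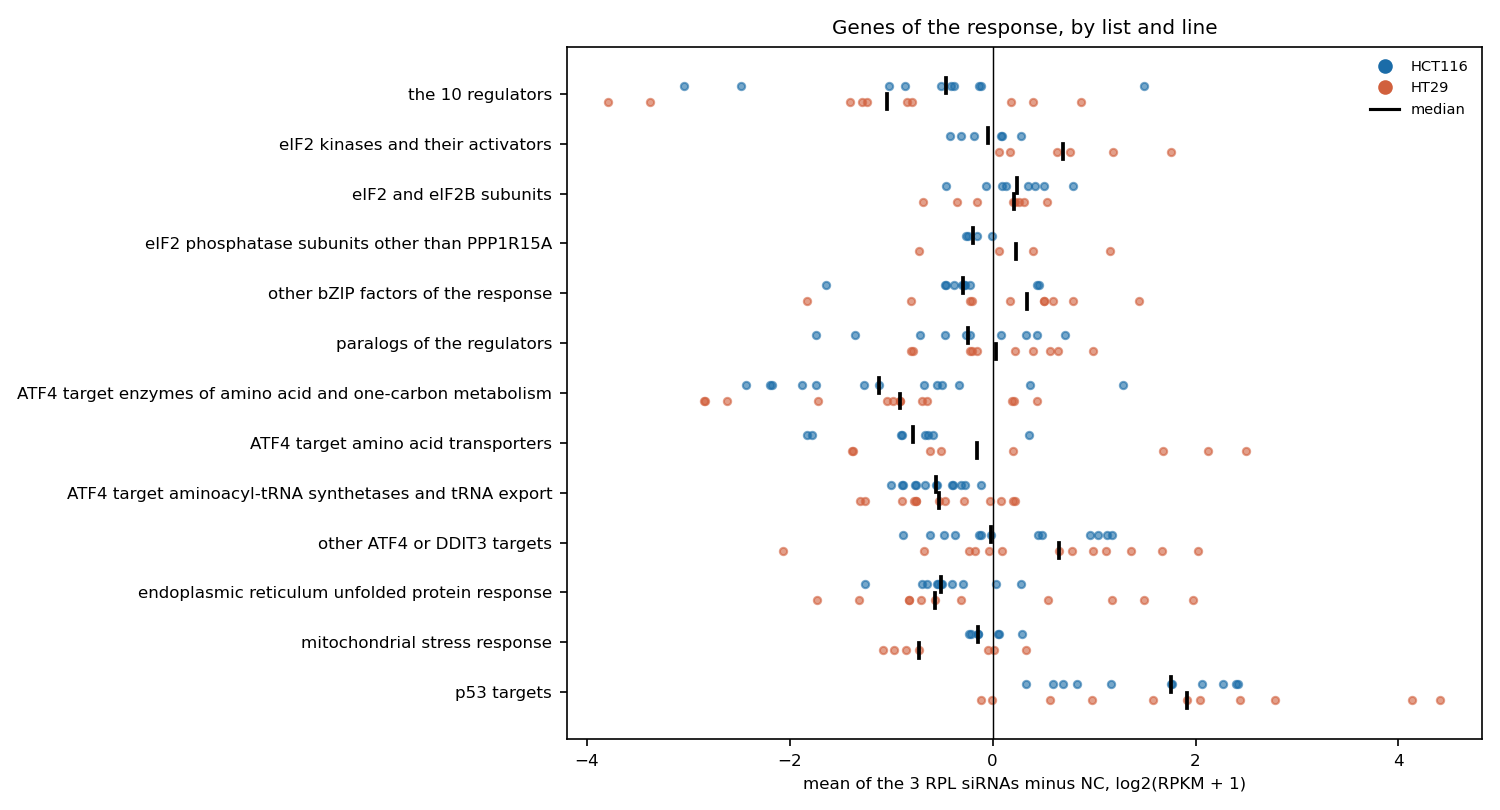
Mean difference of the 3 RPL siRNA libraries from NC within each line on the log2(RPKM + 1) scale (x axis) for the tested genes of the 12 lists and the 10 regulators (y axis), with 1 point per gene and line and black bars for the list median in each line. Medians lie furthest below 0 for the ATF4 target enzymes in HCT116 (-1.13) and the regulators in HT29 (-1.04), and furthest above 0 for the p53 targets (1.76 and 1.92).

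The genes most like the mean profile of the 10 regulators over the 8 libraries, with the line means removed, were TMEM200B (Pearson r = 0.99), JDP2 (r = 0.99), GMPR (r = 0.98), CD9 (r = 0.98) and YARS (r = 0.98), among 12378 genes compared. The 8 points share the 2 NC libraries, so these values describe and do not test. JDP2, a bZIP repressor, had 38.5 RPKM with NC and 15.8, 8.34 and 11.8 RPKM with RPL9, RPL17 and RPL27 siRNA in HCT116. In HT29 it had 41.9 RPKM with NC and 18.0, 7.04 and 10.4 RPKM with those siRNAs. NC was highest and RPL17 siRNA lowest in both lines, the order also seen for DDIT3, CEBPB, TRIB3 and DDIT4.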

How the data were processed

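RNA was measured in 8 libraries, 1 for each of 4 siRNAs in each of 2 cell lines. CASAVA 1.8.2 and TopHat2 2.0.9 were used with the genome hg19, per the submitters' processing notes. The deposited values are RPKM for 19124 gene symbols. How reads were assigned to genes, and whether strand was used, was not given in the sources used here. The values of genes with several exons may be sums over exons, which was not tested, so levels were not compared between genes. Testing was done on log2(RPKM + 1) for the 14281 genes whose mean reached 1 RPKM, all 10 regulators among them. The model, limma 3.58.1 with a variance trend (R 4.3.3), had terms for siRNA and cell line, leaving 3 residual degrees of freedom. The line term pairs each RPL siRNA library with the NC library of its line, as the labels give it. The comparison of the RPL siRNA effect between lines used an interaction fit with 4 residual degrees of freedom. Tests were two-sided, with Benjamini-Hochberg adjustment over all tested genes and a threshold of 0.05. No siRNA was repeated within a line. In the main model p-values therefore rest on how far the siRNA differences disagree between the 2 lines. In the interaction fit they rest on the spread between RPL siRNAs within a line. No counting interval is given because counts were not used, and the estimated depth is rough: 54.0% to 60.9% of low values fell within 0.05 of whole reads. Transcript lengths came from GENCODE annotation, by RefSeq accession for 13738 genes and otherwise by symbol, and served to fit a trend of each library with length. The fit was tested on simulated data. The members and gene lists were chosen with earlier results of these data known. Named were all 10 regulators, list genes past the threshold, the 2 genes of each list with the largest estimates, and the 5 genes with the most similar profile. Alternatives were another pseudocount, filter, scaling, variance model or design, each library left out, each line alone and the length trend removed.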

Additional observations from a re-analysis of the deposited data

Results flagged for a closer look

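ATF5 drew attention because its RPL siRNA libraries lay on opposite sides of NC in the 2 lines: below it in all 3 of HCT116 and above it in all 3 of HT29. The difference between the lines, HCT116 minus HT29, was -0.81 log2 units (SE 0.37). It did not pass the test of the difference itself (limma interaction, adjusted p = 0.160), in which 22.9% of all genes passed, or 7.55% with the length trend removed. That test treats different siRNAs as replicates. All 3 HT29 differences rest on HT29 NC, whose length trend shifts ATF5 by 0.09 log2 units.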

How the results depend on the processing

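With 1 library per siRNA and line, the limits are the few residual degrees of freedom and the 2 NC libraries. In the comparison of any RPL siRNA with NC, 1 regulator was called. None was called with a pseudocount of 0.1 or 5, without the filter, or with a mean of at least 5 RPKM (where NUPR1 was not tested). The same held with median-centring, with robust variances and with no replicate block (0 called without the cell line term, the pairing the labels give). There were 2 called with quantile normalization, 3 with 1 term for any RPL siRNA and 5 with the length trend removed, beside 0.581%, 4.85% and 6.09% of all genes. The fits of 1 line alone or with 1 term take different siRNAs as replicates. Fits of 1 line alone, or with an NC library left out, rest on 1 NC library, so their calls are not given here. For any RPL siRNA, those with an NC library left out are in the Results with that limit. All these fits also enter the numbers of alternatives with a call that close this paragraph, which carry the same limit. Leaving out any 1 RPL siRNA library gave 0 (0.0% of all genes). With the length trend removed, RPL9 siRNA had 3 called, RPL17 siRNA 1 and RPL27 siRNA 2, against 0 in the main comparisons, beside 3.33%, 0.346% and 1.73% of all genes. Without 1 NC library these comparisons too rest on 1 NC library, and their calls are not given. Removing the length trend and leaving out HT29 NC was a combination chosen after seeing the data. With it the regulators had a median log2 difference of -0.45 for any RPL siRNA. It gave 1 called for the lines, beside 27% of all genes. The lines also gave 1, ATF4, when the trend was removed and the 6 RPL siRNA libraries were fitted alone (27.1% of all genes), also chosen after seeing the data. Median-centring gave 1 for the interaction (24.8% of all genes). Median-centring also took the median log2 difference of all genes from 0.10 to -0.10, and quantile normalization to -0.02. The causes of these shifts in calls were not tested. Directions held for all regulators except ATF5 and SESN2 in every setting run. ATF5 had -0.01 in the main comparison, 0.021 with the length trend removed and 0.40 in HT29 alone, and -0.41 to 0.40 with 1 library left out, above 0 without HCT116 NC (0.40), RPL9 siRNA in HCT116 (0.021), RPL17 siRNA in HCT116 (0.13) or RPL27 siRNA in HT29 (0.019). SESN2 had 0.03 in the main comparison, -0.18 with quantile normalization, -0.17 with median-centring, -0.13 with the length trend removed, -0.12 in HCT116 alone and -0.082 with the trend removed and HT29 NC left out. With 1 library left out SESN2 had -0.12 to 0.18, below 0 without RPL17 siRNA in HCT116 (-0.039), HT29 NC (-0.12) or RPL9 siRNA in HT29 (-0.059). CHAC1 ranged from -3.38 to -2.47 over its 22 alternatives and was called in 7, NUPR1 from -5.62 to -1.73 over 21 and was called in 8, DDIT4 from -1.13 to -0.84 and was called in 6, and PPP1R15A from 0.87 to 1.51 and was called in 4.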
